A study of Mus musculus with 295 samples.

Results

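Cdh5 and Esam are 2 endothelial junction genes of the 11454 genes that the arrays measured through a probe of a single gene symbol. Each had 1 probe, chosen by its symbol, and each probe gave a value in all 295 mice with none at the limits of the deposited scale. Cdh5 encodes VE-cadherin, the transmembrane cadherin that joins endothelial cells to each other at adherens junctions and binds catenins inside the cell. Esam encodes an immunoglobulin-family adhesion molecule of endothelial tight junctions that is also found on platelets. In fat, the capillary endothelium governs the passage of fatty acids to adipocytes, and both genes are commonly read as markers of that cell layer.

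The samples were adipose tissue of 295 F2 mice, females and males, descended from the inbred strains C57BL/6J and C3H/HeJ, with ApoE null in both strains and therefore in every mouse. All of them ate a high-fat Western diet between 8 and 24 weeks of age, so the study held no untreated group. RNA of each mouse carried Cy3 and was hybridised on 1 array against a Cy5-labelled pool to which all samples contributed equally. The sample text speaks of 330 mice and the series text of 295, and the labels give neither the sex, the genotype nor the fat depot of any mouse.

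Values are log2 ratios of a mouse over the pool, obtained from deposited values that were read as log10 ratios. Neither the base nor the direction is stated, and both were read from the values, so every fold size depends on the log10 reading while correlations and calls do not. Array medians ran from -0.0521 to 0.0387 on the deposited scale. Of 43365 pairs of arrays, 944 correlated below -0.3 over all probes, and each of those pairs joined an array with epididymis transcripts to one without them.

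The mice were divided by 2 transcripts other than the genes described. Eif2s3y, a gene of the Y chromosome, lay below -0.6 on the deposited scale in 142 mice, called Eif2s3y-low. Gpx5, a secreted glutathione peroxidase made in the epididymis, lay above -0.5 in 47 of the other 153 mice, and mouse 94, which had no Gpx5 value, was added to them through Lcn8, a lipocalin of the same organ. This gave 48 mice with epididymis transcripts and 105 Eif2s3y-high mice lacking them, in the sense that Gpx5 lay below that limit. Where values for the sets follow each other, the order is Eif2s3y-low mice, Eif2s3y-high mice lacking epididymis transcripts, and mice with them. These sets were drawn from the data, are not groups of the study, and no test was run on their levels.

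Over the cross, Cdh5 varied less than the median probe and Esam varied more than it. Cdh5 ran from -0.63 in mouse 173 over a median of 0.07 to 1.15 in mouse 83, with an SD of 0.25 ± 0.01 (SE, n = 295). The central 90% of mice spanned 1.72-fold, and 35.4% of all probes had a smaller SD. Esam ran from -1.51 in mouse 12 over a median of 0.01 to 0.76 in mouse 337, with an SD of 0.39 ± 0.02 (SE, n = 295). Its central 90% spanned 2.38-fold, and 75.2% of all probes had a smaller SD, against a median SD over probes of 0.29.

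Both genes lay lowest in the mice with epididymis transcripts. Cdh5 had a median of 0.16 in the Eif2s3y-low mice (-0.24 to 1.15), 0.04 in the next set (-0.49 to 0.54) and -0.19 in the mice with epididymis transcripts (-0.63 to 0.38). Esam had medians of 0.17 (-0.82 to 0.76), -0.07 (-0.83 to 0.63) and -0.55 (-1.51 to 0.12) in the same order. All 3 ranges overlapped for both genes. Of the 48 mice with epididymis transcripts, none had both genes above the pool, 39 had both below it and 9 had them on opposite sides. Among the Eif2s3y-low mice, 92 of 142 had both genes above the pool. These were bulk samples, in which fewer endothelial cells and less RNA per endothelial cell cannot be told apart, and the part of admixed epididymis in these levels was not tested.

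**Figure D1:**
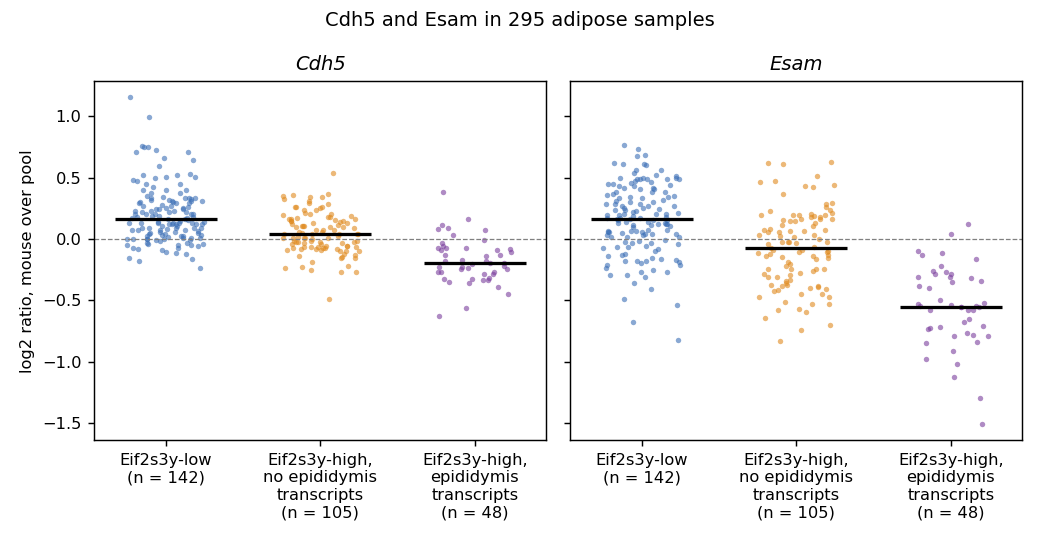
Log2 ratio of mouse over pool (vertical axis) of Cdh5 and Esam in each of the 295 mice, split into 142 Eif2s3y-low mice, 105 Eif2s3y-high mice lacking and 48 mice having epididymis transcripts; each point is 1 mouse and each black bar a median. Medians descend from 0.16 to -0.19 for Cdh5 and from 0.17 to -0.55 for Esam, with overlapping ranges.

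The mice at the ends of each range were not the same for both genes. The 5 mice of highest Cdh5 (0.74 to 1.15) were all Eif2s3y-low, and their Esam values ran only from -0.31 to 0.07. Of the 5 mice of lowest Cdh5, 4 carried epididymis transcripts, and so did all 5 of lowest Esam. Mice 12, 104 and 174 were among the lowest for both genes. Mouse 12 also stood apart as an array, with a median over all probes of -0.17 (log2 ratio).

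Over all mice Cdh5 and Esam rose and fell together, but within the Eif2s3y-low mice they did not covary detectably. Pearson's r over 295 mice was 0.53 (Spearman's rho 0.59, permutation p = 1e-05 for both, the smallest that 100000 permutations can give, adjusted p = 1.52e-05), and 0.51 without the 2 mice of most extreme Esam. Adjusted p-values of correlations were taken over a family of 128 tests, from 16 relations in all mice and in 3 sets with both coefficients. Under alternative settings, such as a covariate or a removed component, they were taken over the 7 relations of each setting. The 142 Eif2s3y-low mice gave an r of 0.04 (rho 0.13, permutation adjusted p = 0.635 and 0.127; 95% interval of r -0.12 to 0.20). It was 0.59 in the Eif2s3y-high mice lacking epididymis transcripts (0.45 to 0.70) and 0.58 in those with them (0.35 to 0.74), both at a permutation adjusted p of 1.52e-05. Leaving out any single mouse kept r between 0.01 and 0.07 in the Eif2s3y-low mice.

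The difference between sets was tested as an interaction in limma, fitted to every probe and adjusted by Benjamini-Hochberg. The slope of Esam on Cdh5 was 0.05 in the Eif2s3y-low mice and 1.12 in the Eif2s3y-high mice lacking epididymis transcripts, a difference of 1.07 ± 0.19 (SE, limma adjusted p = 1.25e-06). The slope on Cdh5 changed in 45.2% of all probes, however, so Esam was one of many. Taken the other way round, the slope of Cdh5 on Esam was 0.03 and 0.31, a difference of 0.28 ± 0.09 (limma adjusted p = 0.0370), and 3.99% of probes changed their slope on Esam. Both fits were chosen after the correlations had been seen.

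The pooled correlation leaned on the differences between sets. With the set as a covariate r fell to 0.29, without the mice with epididymis transcripts to 0.33, and with the first principal component of all probes removed to 0.22, all with permutation adjusted p-values of 0.000238 or less. That component held 25.3% of the variance and correlated at -0.61 with Cdh5 and at -0.66 with Esam.

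**Figure D2:**
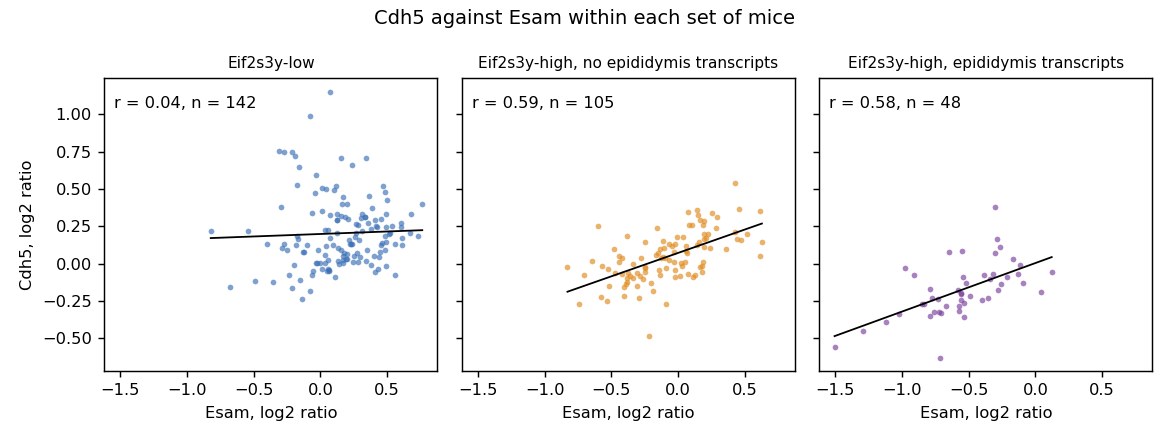
Cdh5 (vertical axis) against Esam (horizontal axis), both as log2 ratios of mouse over pool, in 3 panels, 1 for each set of mice; each point is 1 mouse and each line a least-squares fit. The points form a flat cloud in the Eif2s3y-low panel (r = 0.04) and a rising one in the others (r = 0.59 and 0.58).

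Esam followed the other endothelial genes closely, and Cdh5 followed them at a lower correlation. The comparison used the mean of standardised values of 24 measured endothelial surface and identity genes, a list that holds neither gene. Esam correlated with this endothelial score at r = 0.90 (rho 0.88, 295 mice, permutation adjusted p = 1.52e-05), the highest of all 22894 probes, and at 0.78, 0.83 and 0.91 within the sets. Cdh5 correlated with it at r = 0.64 (rho 0.71, permutation adjusted p = 1.52e-05), rank 588 among the probes. By set its r was 0.24 (rho 0.38, permutation adjusted p = 0.0052), 0.71 and 0.62. For 45.8% of all probes the positive relation with the endothelial score passed a limma adjusted p of 0.05. The change of slope between the Eif2s3y-low mice and the Eif2s3y-high mice lacking epididymis transcripts, added after the data were seen, did not pass the test for Cdh5 (0.15 ± 0.06, limma adjusted p = 0.183) or Esam (0.06 ± 0.06, limma adjusted p = 0.637), and 3.24% of probes did.

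In the counts of genes that follow, a gene was called with Cdh5 or Esam when its slope over 295 mice passed a limma adjusted p of 0.05 and the absolute r was at least 0.4. With Cdh5, 23.6% of all probes were called higher and 12.9% lower. With Esam, 11.0% were called higher and 8.25% lower. The split for Esam was 2525 higher against 1889 lower, and it turned to 1831 against 2415 when each array's median was subtracted. The array medians themselves, between -0.17 and 0.13 in log2, correlated at 0.58 with Esam and 0.36 with Cdh5.

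Of the 24 endothelial surface and identity genes, 15 rose with Esam and none fell, and 13 rose with Cdh5 and none fell. Their median r was 0.61 with Esam and 0.44 with Cdh5, against 0.08 and -0.01 over all genes. Adgrf5, an adhesion G-protein-coupled receptor of capillaries, followed Esam at 0.91. Flt1, a VEGF receptor, followed it at 0.85, and Mcam, an adhesion molecule of the vessel wall, at 0.84. Kdr, the main VEGF receptor of endothelium, had an r of 0.79 with Esam and 0.20 with Cdh5. By set the r of Kdr with Cdh5 was -0.36, 0.35 and 0.31. Pecam1, an adhesion molecule at endothelial contacts, had an r of 0.28 with Esam and 0.49 with Cdh5. Without the mice with epididymis transcripts, 6 rose and 2 fell with Cdh5. With the first principal component removed, 5 rose and 2 fell with it.

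The endothelial genes closest to Cdh5 were others. Podxl, the sialomucin podocalyxin, had an r of 0.87, Ece1, the enzyme that processes endothelin, 0.80, and Cyyr1 0.78. Among the Eif2s3y-low mice these 3 had r values of 0.91, 0.86 and 0.83 with Cdh5 and of 0.02, -0.11 and -0.11 with Esam. Of the 24 genes, the angiopoietin-system receptor Tie1 (0.71 with Cdh5 and 0.72 with Esam) and the TGF-beta co-receptor endoglin, Eng (0.70 and 0.72), were the pair that passed 0.6 with both Cdh5 and Esam over all mice.

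In the Eif2s3y-low mice 6 of the 24 endothelial genes rose with Cdh5 and 2 fell, Procr (-0.50) and Acvrl1 (-0.43), at a median r of -0.02. The shares of all probes called with Cdh5 in those mice were 24.9% higher and 19.9% lower, so the endothelial list did not stand above them. In the same mice 12 of the 24 rose with Esam and none fell, at a median of 0.39, where 7.88% of all probes were higher and 5.46% lower. In the Eif2s3y-high mice lacking epididymis transcripts 15 rose with Cdh5 (14.7% of all probes higher, 4.55% lower), and 13 rose and 1 fell with Esam (9.43% and 7.71%). In the mice with epididymis transcripts 12 rose with Cdh5 (16.9% and 9.17%) and 14 with Esam (10.1% and 6.55%).

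Among 19 measured partners of adherens and tight junctions, 9 rose with Esam and none fell, while 5 rose and 2 fell with Cdh5. The counts with Cdh5 were near the shares of all probes called with it (23.6% higher and 12.9% lower). The counts with Cdh5 became 2 and 2 with each array's median removed, and 1 and 3 either with the first principal component removed or without the mice with epididymis transcripts. Rasip1, a Rap1 effector needed for vessel lumens, followed Esam at 0.89. Ptprb, the phosphatase VE-PTP that binds VE-cadherin, followed it at 0.83, the receptor phosphatase Ptprm at 0.79, and the tight-junction genes Tjp1 and Cldn5 at 0.67 and 0.65. N-cadherin, Cdh2 (0.61), Jam2 (0.49), Nectin2 (0.45) and Ctnna1 (0.44) were the other 4.

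With Cdh5 the tight-junction gene Ocln stood highest at 0.52, followed by Ctnna1 (0.49), Ptprm (0.45), Ptprb (0.44) and Tjp1 (0.43). The catenins of the VE-cadherin complex did not move together: alpha-catenin, Ctnna1, rose with Cdh5, while beta-catenin, Ctnnb1 (-0.49), and p120-catenin, Ctnnd1 (-0.43), fell. Plakoglobin, Jup, had an r of 0.27. Among the Eif2s3y-low mice Ocln reached 0.80 with Cdh5 and Ctnnb1 -0.59, while Ocln had an r of -0.21 with Esam. In those mice 2 of the 19 junction genes rose and 4 fell with Cdh5, at a median r of -0.27. The shares of all probes there were 24.9% higher and 19.9% lower. With Esam 7 of the 19 rose and none fell in those mice, at a median of 0.28.

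Of 22 transcription factors of the endothelium, 9 rose and none fell with Esam, and 5 rose and 1 fell with Cdh5, a share near that of all probes called with it (23.6% higher and 12.9% lower). The counts with Cdh5 became 4 and 3 with each array's median removed, 2 and 3 without the mice with epididymis transcripts, and 1 and 3 with the first principal component removed. Sox17 followed Esam at 0.84, the Notch target Hey1 at 0.84, and Sox7 at 0.79. With Cdh5 the highest were Ets2 (0.67), Sox17 (0.54) and the hypoxia factor Epas1 (0.51), and Lmo2 fell at -0.43. Of 26 angiogenic ligands and receptors, 11 rose and 1 fell with Esam, and 4 rose and 3 fell with Cdh5. The share rising with Cdh5 lay below that of all probes (23.6%), and the share falling was near theirs (12.9%). With each array's median removed 2 rose and 4 fell with Cdh5, and 1 rose and 3 fell either without the mice with epididymis transcripts or with the component removed. The Notch ligand Dll4 followed Esam at 0.92, its receptor Notch4 at 0.88 and the growth factor Vegfb at 0.84. Ephb4, the ephrin receptor of veins, followed Cdh5 at 0.71, Vegfb followed it at 0.50 and the peptide ligand apelin, Apln, ran opposite to it at -0.53. Among the Eif2s3y-low mice 2 transcription factors rose and 6 fell with Cdh5, and 3 angiogenic genes rose and 5 fell. Both lists had a median r of -0.15 with Cdh5 in those mice, where 24.9% of all probes were higher and 19.9% lower.

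Genes of the capillary lumen and wall followed Esam. Gpihbp1, which holds lipoprotein lipase on the capillary wall, had an r of 0.91 with Esam and 0.62 with Cdh5. The lipoprotein receptor Scarb1 (0.69) and the caveolar gene Cavin1 (0.52) were the others of 5 measured lipid-uptake genes to rise with Esam, and Gpihbp1 alone rose with Cdh5. Of 10 basement membrane genes 8 rose with Esam, led by Nid1 (0.82), Lama4 (0.76) and Col15a1 (0.64), and 5 rose with Cdh5, led by Nid1 (0.61), Lamb1 (0.57) and Lama4 (0.49). The count with Cdh5 was 3 with each array's median removed, 2 without the mice with epididymis transcripts and 1 with the first principal component removed. Of 12 pericyte and smooth muscle genes 6 rose with Esam, led by the potassium-channel subunits Abcc9 (0.80) and Kcnj8 (0.74) and by Notch3 (0.70), and Notch3 alone (0.49) with Cdh5. The count with Esam was 3 with each array's median removed, and Notch3 was not among the genes rising with Cdh5 either without the mice with epididymis transcripts or with the component removed. No gene of these 3 lists fell with either. The shares of all probes called higher were 11.0% with Esam and 23.6% with Cdh5.

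The other vascular lists covered lymphatic vessels, activated endothelium and platelets. Of 7 lymphatic endothelial genes none rose with Esam and Pdpn fell (-0.54), while Prox1 (0.44) rose and Pdpn (-0.47) fell with Cdh5. Of 7 genes of activated endothelium, P-selectin, Selp (0.43), rose with Esam, and Csf3 (0.77) and Selp (0.46) rose and Icam1 (-0.53) fell with Cdh5. Of 8 platelet genes, the integrin Itga2b fell with both (-0.53 with Esam, -0.51 with Cdh5), and Gp1bb rose with Cdh5 (0.74). The counts with Cdh5 in these lists were near the shares of all probes called with it (23.6% higher and 12.9% lower). With Esam 11.0% of all probes were higher and 8.25% lower. The call of Selp with Esam was lost with each array's median removed, with the first principal component removed, without the mice with epididymis transcripts and without mouse 12.

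**Figure D3:**
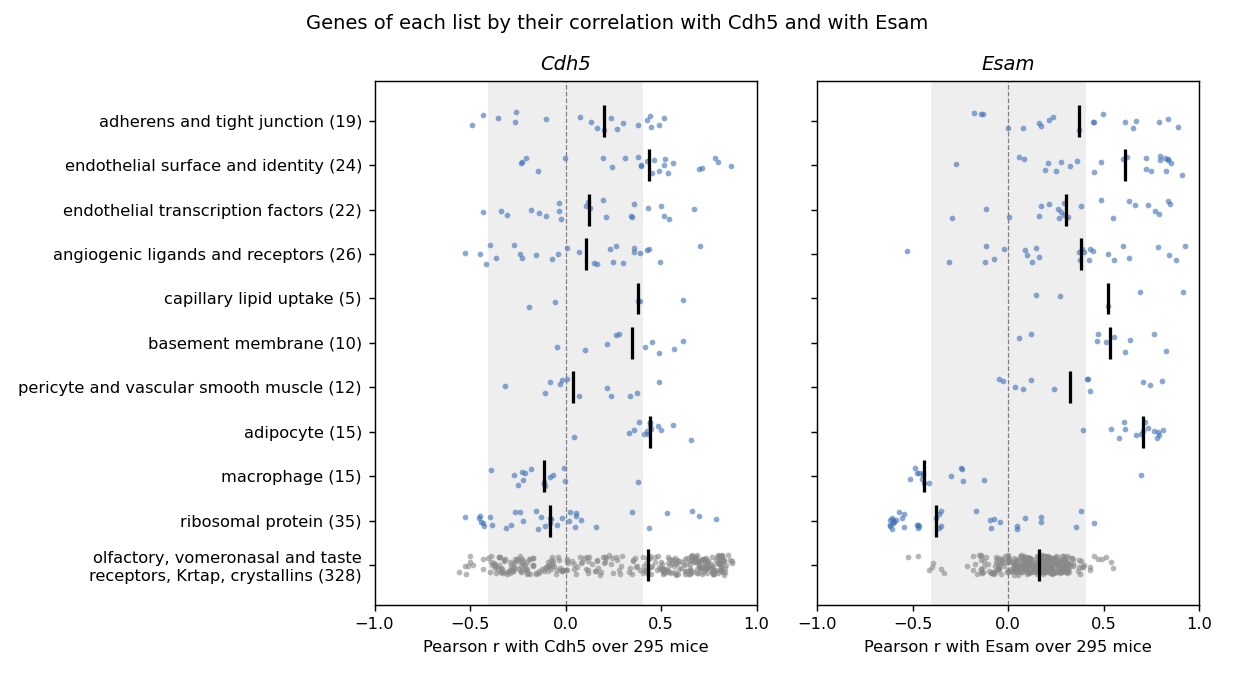
Pearson r over 295 mice with Cdh5 (left) and with Esam (right) on the horizontal axis for each measured gene of 10 lists and, in grey, of 4 gene families of other organs; numbers of genes stand in parentheses, black bars are medians and the shaded band marks absolute r below 0.4. Adipocyte genes (median 0.70) and endothelial surface genes (0.61) lie furthest right for Esam, and the families of other organs have a median of 0.43 with Cdh5 and 0.16 with Esam.

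The genes most like each member, by Pearson r over 295 mice with 1 probe per gene, belonged to different kinds. Most like Esam were Dll4 (0.92), Gpihbp1 (0.91), Adgrf5 (0.91), Rasip1 (0.89), Cd300lg (0.89), Notch4 (0.88), Lims2 (0.88), ANKRD47 (0.88), Sik2 (0.87) and Dapk2 (0.87). Of these, Dll4, Adgrf5, Notch4, Gpihbp1, Rasip1, Sik2 and Lims2 were also among the 10 with the highest r in their weakest set, which added Fgfrl1, Kctd2 and Arhgef15. Dll4 kept an r of at least 0.86 in every set. The lowest were Tpd52 (-0.76), Pafah1b3 (-0.75), Slc39a6 (-0.75), Mthfd2 (-0.75) and Galnt12 (-0.75).

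Most like Cdh5 were Diaph1 (0.91), Il22ra1 (0.89), Cyria (0.89), Pxn (0.89), Foxo6 (0.88), ZBTB37 (0.87), Olfr1446 (0.87), Gm8777 (0.87), Trappc10 (0.87) and Krtap19-5 (0.87). Diaph1, an actin-nucleating formin, and Pxn, the focal adhesion protein paxillin, act on the cytoskeleton, but Olfr1446 is an olfactory receptor gene and Krtap19-5 a keratin-associated protein gene of hair. Diaph1 kept an r of at least 0.79 in every set. The 10 with the highest r in their weakest set added Tagln3, ZCCHC10, Aldh1l1 and the lens crystallin Crybb1, which had r values of 0.89, 0.72 and 0.80 in the 3 sets. The lowest were Ebag9 (-0.78), Nsmce3 (-0.77), Med14 (-0.76), Ppp1cc (-0.74) and Slc19a2 (-0.74). Esam held rank 1790 among 11453 genes by likeness to Cdh5, and Cdh5 rank 757 by likeness to Esam.

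Because of Olfr1446, Krtap19-5 and Crybb1, 4 gene families of other organs were picked by symbol after these neighbours had been seen, and they are described without a test. The olfactory receptors, vomeronasal and taste receptors, keratin-associated proteins and lens crystallins had 328 measured genes. With Cdh5, 171 of them (52.1%) were higher and 10 lower, at a median r of 0.43, where 23.6% of all probes were higher and 12.9% lower. With Esam 8 were higher and 4 lower, at a median of 0.16, where 11.0% of all probes were higher and 8.25% lower. In the Eif2s3y-low mice the medians were 0.47 with Cdh5 and -0.04 with Esam, and 175 were higher and 37 lower with Cdh5. The shares of all probes called with Cdh5 there were 24.9% higher and 19.9% lower. In the Eif2s3y-high mice lacking epididymis transcripts and in those with them, the medians with Cdh5 were 0.20 and 0.27. What these probes measured in fat, and its part in the values of Cdh5, was not tested.

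Esam rose with adipocyte genes in all 3 sets. Cdh5 passed the test in the Eif2s3y-high sets and not in the Eif2s3y-low mice, but the change of its slope between the Eif2s3y-low mice and the Eif2s3y-high mice lacking epididymis transcripts did not pass (limma adjusted p = 0.0571). The adipocyte score was the mean of standardised values of 15 measured genes of fat storage and adipocyte identity. It lacked Fabp4, Lpl and Cd36, whose probes gave no value in 75.6%, 74.9% and 78.3% of mice, and Adipoq, for which no probe carried the symbol. Esam correlated with it at r = 0.85 (rho 0.82, permutation adjusted p = 1.52e-05, 295 mice), rank 66 among 22894 probes. Within the sets r was 0.68, 0.74 and 0.85, each at a permutation adjusted p of 1.52e-05.

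Cdh5 correlated with the adipocyte score at r = 0.53 (rho 0.56, permutation adjusted p = 1.52e-05), rank 1464. In the Eif2s3y-low mice its r was 0.05 (rho 0.11, permutation adjusted p = 0.603 and 0.208; 95% interval of r -0.12 to 0.21), and it was 0.53 and 0.51 in the other sets. The positive relation passed a limma adjusted p of 0.05 for 44.4% of all probes. The change of the Cdh5 slope, 0.13 ± 0.04 from the Eif2s3y-low mice to the Eif2s3y-high mice lacking epididymis transcripts, did not pass the test (limma adjusted p = 0.0571), nor did that of Esam (0.05 ± 0.05, limma adjusted p = 0.520), and 6.04% of probes passed. With the set as a covariate r fell to 0.26 for Cdh5 and to 0.73 for Esam.

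Of the 15 adipocyte genes, 14 rose with Esam and none fell, at a median r of 0.70. Of all probes, 11.0% were higher with Esam and 23.6% with Cdh5. The insulin-regulated glucose transporter Slc2a4 followed Esam at 0.81, the lipid-droplet coat protein Plin1 at 0.79 and G0s2, an inhibitor of lipolysis, at 0.79. Cidea alone missed the call, at 0.39. With Cdh5 11 rose and none fell, led by Pparg (0.66), the master regulator of adipocytes, Lpin1 (0.56) and Agpat2 (0.50), at a median of 0.44. In the Eif2s3y-low mice none of the 15 was called with Cdh5 and 11 rose with Esam. Of all probes in those mice, 24.9% were higher and 19.9% lower with Cdh5, and 7.88% were higher with Esam. The count with Cdh5 was 5 with each array's median removed, 2 without the mice with epididymis transcripts and 1 with the first principal component removed.

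Lep, which encodes the satiety hormone leptin secreted by adipocytes, divided the pair the other way round in the Eif2s3y-low mice. Lep ran from -1.38 over a median of 0.05 to 1.27. Cdh5 correlated with Lep at r = 0.54 (rho 0.54, permutation adjusted p = 1.52e-05, 295 mice), rank 236 of 22893 probes, and at 0.44, 0.59 and 0.59 in the 3 sets, each at a permutation adjusted p of 1.52e-05. Esam correlated with it at r = 0.39 (rho 0.33, permutation adjusted p = 1.52e-05), rank 1995. The Eif2s3y-low mice gave Esam and Lep an r of -0.01 (rho -0.08, permutation adjusted p = 0.915 and 0.361; 95% interval of r -0.17 to 0.16), and 0.49 and 0.68 elsewhere. The positive relation with Lep passed a limma adjusted p of 0.05 for 38.7% of all probes. Cdh5 minus Esam did not covary detectably with Lep over all mice (r = -0.06, permutation adjusted p = 0.316). That difference rose with Lep in the Eif2s3y-low mice (r = 0.29, permutation adjusted p = 0.000531). It fell with Lep in the other sets (r = -0.22 and -0.43, permutation adjusted p = 0.0286 and 0.00304).

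The slope of Esam on Lep was -0.01 in the Eif2s3y-low mice and 0.35 in the Eif2s3y-high mice lacking epididymis transcripts. The difference was 0.36 ± 0.08 (SE, limma adjusted p = 0.000563), and it stayed between 0.34 and 0.41 when any single mouse was left out. For Cdh5 the slopes were 0.24 and 0.22, and their difference of -0.01 ± 0.05 did not pass the test (limma adjusted p = 0.878). The slope on Lep changed in 23.0% of all probes, so a change was common. Over all mice the r of Esam with Lep fell to 0.18 without the mice with epididymis transcripts and to 0.14 with the first principal component removed.

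**Figure D4:**
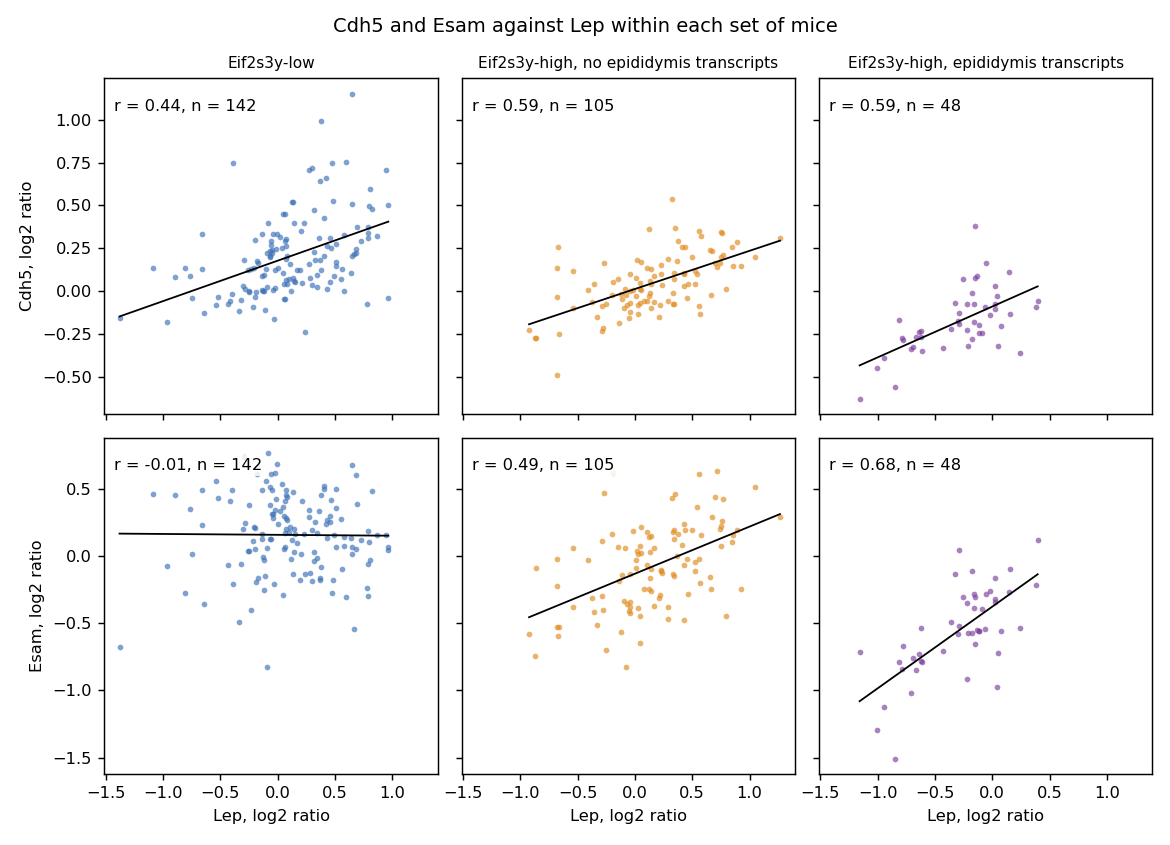
Cdh5 (upper row) and Esam (lower row) against Lep, all as log2 ratios of mouse over pool, with 1 column of panels for each set of mice; each point is 1 mouse and each line a least-squares fit. Cdh5 rises with Lep in all 3 sets (r = 0.44, 0.59 and 0.59), while Esam is flat in the Eif2s3y-low mice (r = -0.01) and rises in the others (0.49 and 0.68).

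Ribosomal protein genes, which encode the protein part of the translation machinery, ran opposite to Esam, while their relation to Cdh5 was weak. The score was the mean of standardised values of 35 measured ribosomal protein genes. Esam correlated with it at r = -0.57 (rho -0.60, permutation adjusted p = 1.52e-05, 295 mice), with -0.70 in the Eif2s3y-low mice and -0.57 in the Eif2s3y-high mice lacking epididymis transcripts. In the mice with epididymis transcripts r was -0.29 (permutation adjusted p = 0.0554; rho -0.46, adjusted p = 0.00191). Without mouse 12, whose ribosomal protein score was -0.89, it was -0.55 in those mice. The negative relation passed a limma adjusted p of 0.05 for 35.3% of all probes.

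Cdh5 had an r of -0.10 with the ribosomal protein score (permutation adjusted p = 0.101; 95% interval -0.21 to 0.02) and a rho of -0.15 (adjusted p = 0.0156), so only the rank correlation passed. Within the sets r was 0.10, -0.15 and -0.00, none of which passed. The sign of the pooled r turned to 0.13 with the first principal component removed. The change of slope between sets did not pass for Cdh5 (-0.10 ± 0.06, limma adjusted p = 0.256) or Esam (0.02 ± 0.06, limma adjusted p = 0.897), and 8.68% of probes passed.

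Of the 35 ribosomal protein genes, 17 fell and 1 rose with Esam, at a median r of -0.38. Of all probes 8.25% fell and 11.0% rose with Esam. Rps6 (-0.62), Rps18 (-0.62) and Rpl3 (-0.62) were lowest, and Rps25 (0.45) was the one that rose. With Cdh5 5 rose and 6 fell, at a median of -0.08. The share rising with Cdh5 lay below that of all probes (23.6%), and the share falling was near theirs (12.9%). Rpl23 (0.79), Rpl28 (0.70) and Rpl5 (0.66) rose with Cdh5 while Rps6 fell (-0.52). Probes of ribosomal protein genes can also bind transcripts of near-identical pseudogenes, so values of single genes of this list are uncertain.

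**Figure D5:**
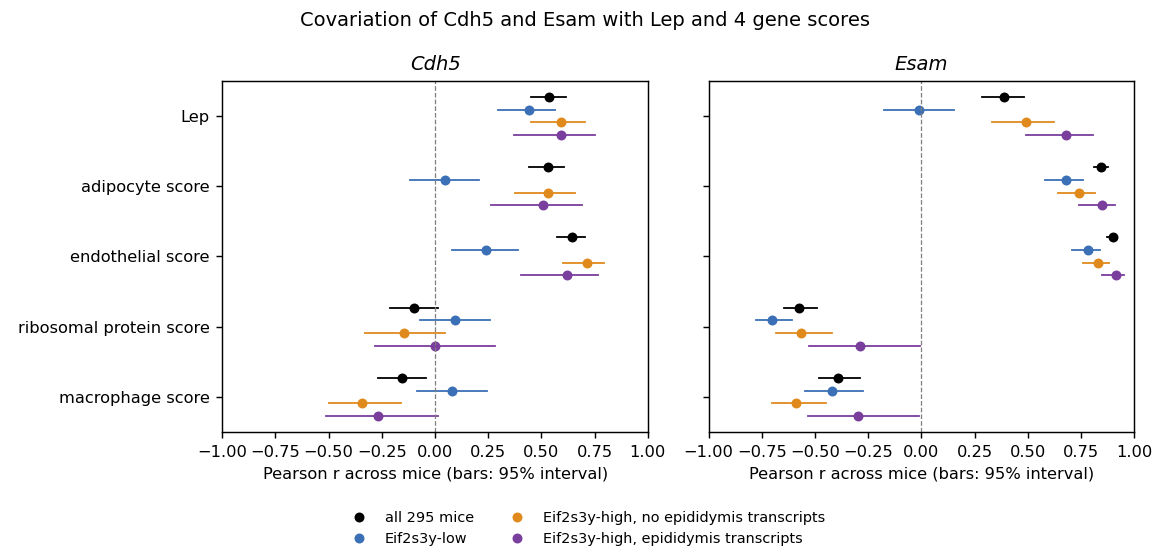
Pearson r across mice (horizontal axis, with 95% intervals as bars) of Cdh5 (left) and Esam (right) with Lep and 4 scores, for all 295 mice (black), 142 Eif2s3y-low mice (blue), 105 Eif2s3y-high mice lacking epididymis transcripts (orange) and 48 with them (purple). For Cdh5 the blue point falls away from the others on the adipocyte (0.05) and endothelial (0.24) scores, and for Esam on Lep (-0.01).

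Markers of other cell types also moved with Esam. The macrophage score correlated with Esam at -0.39 (rho -0.44, permutation adjusted p = 1.52e-05) and with Cdh5 at -0.16 (rho -0.21, permutation adjusted p = 0.00858 and 0.000473), and the negative relation passed a limma adjusted p of 0.05 for 27.9% of all probes. Of 15 macrophage genes 9 fell and 1 rose with Esam, the scavenger receptor Cd163 (0.70), and none was called with Cdh5. The shares of all probes called were 11.0% higher and 8.25% lower with Esam, and 23.6% and 12.9% with Cdh5. Within the sets the macrophage score correlated with Esam at -0.42, -0.59 and -0.30, the last becoming -0.54 without mouse 12, and with Cdh5 at 0.08, -0.34 and -0.27, which became -0.43 without it. All 8 epididymis genes fell with Esam and 6 with Cdh5, as did 6 and 3 of 8 epithelial genes, and none of either list was called with Esam within any set. In the Eif2s3y-low mice 2 epididymis and 2 epithelial genes rose with Cdh5, near the share of all probes there (24.9%). In the Eif2s3y-high mice lacking epididymis transcripts 1 epithelial gene rose with it, also near the share of all probes (14.7%). In the mice with epididymis transcripts none was called. With the first principal component removed 3 epididymis genes rose and none fell with Cdh5 (median r 0.38), and none was called with Esam. Elf3 was the 1 epithelial gene to rise with Cdh5 (0.44). The macrophage score ran from -2.30 to 1.20, from -1.45 to 1.60 and from -1.71 to 1.05 in the 3 sets, and the epididymis score from -0.82 to 0.19, from -0.80 to 0.25 and from 1.59 to 2.37.

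Other marker lists gave few calls with Esam. None of 7 T-cell, 5 erythrocyte, 6 skeletal muscle and 3 mesothelium genes was called with it, Blnk (-0.58) alone of 6 B-cell genes fell, and Pi16 (0.45) alone of 7 fibroblast genes rose. With Cdh5 the T-cell genes Cd4 (0.67) and Cd3e (0.52), the erythrocyte anion exchanger Slc4a1 (0.47), the muscle genes Pvalb (0.69) and Ckm (0.42) and the mesothelial Lrrn4 (0.70) rose, no B-cell or fibroblast gene was called, and none of these lists had a gene that fell. Over all probes, 23.6% were called higher with Cdh5 and 12.9% lower. The whole lists had median r values with Cdh5 of -0.01 (T cell), 0.05 (erythrocyte), 0.23 (skeletal muscle) and 0.18 (mesothelium). The part of these cell types in the values of Cdh5 and Esam was not tested.

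Apoe, the gene inactivated in all these mice, was still measured by its probe, and its values correlated with Esam at 0.60 and with Cdh5 at 0.32. Within the sets its r was 0.49, 0.43 and 0.41 with Esam and 0.05, 0.20 and 0.15 with Cdh5. Whether the probe lies in a part of the transcript that the null allele leaves intact was not analysed here.

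Genes beside each member on its chromosome, in the gene order of RefSeq's GRCm38.p6 assembly, did not share its pattern. The 3 nearest measured genes on each side of Cdh5 had r values of -0.53 (Got2), 0.07 (Cdh8) and 0.10 (1600027J07Rik) on one side and of -0.06 (Bean1), -0.42 (Tk2) and -0.02 (Cmtm3) on the other. Those beside Esam had r values of -0.42 (Slc37a2), 0.18 (Robo3) and 0.25 (Msantd2), and of -0.03 (Nrgn), -0.33 (Spa17) and 0.11 (Siae). None of the 12 reached 0.4 with the gene beside it, and Got2, Tk2 and Slc37a2 lay below -0.4.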

How the data were processed

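The deposited log10 ratios hold 1 array for each of 295 mice and 23387 probes, without counts or intensities, so depth is unknown and the number of mice limits precision. For the steps by which the authors made the deposited values, tools and normalization were not given in the sources used here. Both the log10 base and the direction of mouse over pool were read from the values.

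A factor of 3.32 turned them into log2 ratios. Probes measured in at least 90% of mice were kept (22894, with 493 left out), and 7762 gaps were filled with the probe's mean. Gene symbols came from the platform annotation and were updated through Entrez identifiers in RefSeq (GRCm38.p6). The most variable probe stood for a gene. Of 365 genes in 12 lists and 9 marker lists, 255 were measured.

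Relations were tested by 100000 two-sided permutations over mice, and all probes were fitted with limma 3.58.1 (R 4.3.3) with Benjamini-Hochberg adjustment, which was tested on simulated data. For 1 sample, title and source name disagree on the mouse, and the title was followed. Each array is a different mouse, and there are no technical replicates. The members and gene lists were chosen with earlier results of these data known. Named genes were the 10 most and 5 least correlated with each member, the 10 of highest r in their weakest set, 3 leading genes of each list, all called junction genes, Lep, Apoe and 3 neighbours on each side. Kdr, Pecam1 and a few other list genes were named after their values were seen. Alternatives were array centring, principal component, set, gaps, probe choice, value limits and ranges of mouse number.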

Additional observations from a re-analysis of the deposited data

Results flagged for a closer look

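A relation that differed between the Eif2s3y-low mice and the Eif2s3y-high mice lacking epididymis transcripts, by an interaction term in limma, brought 3 results here. The slope of Esam on Lep was larger by 0.36 in the Eif2s3y-high mice (limma adjusted p = 0.000563). The slope of Cdh5 on Esam was larger by 0.28 (limma adjusted p = 0.0370), and that of Esam on Cdh5 by 1.07 (limma adjusted p = 1.25e-06). The last pair describe the same relation from both sides. Leaving out any single mouse kept these differences between 0.34 and 0.41, between 0.26 and 0.30, and between 1.03 and 1.16. The sets were defined from the data, and the causes of the differences were not tested.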

How the results depend on the processing

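No paired analysis was possible because the labels give 1 group with 1 array per mouse. Of 408 alternative values, 327 kept their direction where it was called and their side of the threshold or stayed within 1.5 times the count. With the first principal component removed, the r of Cdh5 with the ribosomal protein score became 0.13 and passed (permutation adjusted p = 0.0302). That adjustment covered the 7 relations of the setting. By limma's adjusted p alone, without a limit on r, 18219 probes were called with Cdh5 and 16353 with Esam, against 8349 and 4414 with it. With the set as a covariate 2756 were called with Esam. Read as log2 or natural log ratios, the central 90% span was 1.18-fold or 1.27-fold for Cdh5 and 1.30-fold or 1.46-fold for Esam. Alternatives added after the data were seen gave list counts for Cdh5 of 7 endothelial, 1 adipocyte and 7 ribosomal protein genes with the component removed, of 8, 2 and 7 without the mice with epididymis transcripts, and of 5 adipocyte genes with array medians removed. For these 3 lists, counts of genes called in either direction stayed within 1.5 times for Esam, and for both members without mouse 12. Over the other 18 lists, 47 of 144 counts of higher or lower genes for Cdh5 and 19 of 144 for Esam moved by more. With array medians removed, pericyte genes higher with Esam fell from 6 to 3. Without the mice with epididymis transcripts, epididymis genes lower with Esam went from 8 to 0 and epithelial genes from 6 to 0. Without mouse 12, 1 macrophage gene fell with Cdh5, against 0, and no activated endothelial gene rose with Esam, against 1. The limits of the scale touched 1 mouse, in the ribosomal protein relations only. The causes of these changes were not tested.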
